A study of Mus musculus with 4 samples.

Results

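The 37 genes described here encode aminoacyl-tRNA synthetases, the enzymes that join each amino acid to its transfer RNA (tRNA). They were chosen by name, with no measured value in the rule, but with earlier results of these data known. All 37 were among the 32285 genes counted, 36 under the same symbol and Mars1 under its older symbol. Of these, 16 serve mitochondria only (symbols ending in 2, except Tarsl2). The other 21, with Tarsl2, act in the cytosol, among them Gars and Kars, which supply both compartments from 1 gene. Mitochondria translate the few proteins of their own genome with their own tRNAs, while the synthetases that charge those tRNAs are made from nuclear genes and imported. When mitochondrial translation or respiration is disturbed, many cell types switch on the transcription factor ATF4, whose reported targets include genes of amino acid synthesis, amino acid transport and several cytosolic synthetases. In the small intestine, dividing crypt cells make large amounts of protein as they renew the epithelium, and enterocytes are the absorptive cells that leave the crypt and cover the villi.

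There were 2 libraries of TrnA point mutant mice and 2 of wild type mice, all at 25 weeks of age. The mutants carried G5081A in the mitochondrial gene of the alanine tRNA (mt-Ta, chrM:5018-5086, minus strand, GENCODE vM21), with mutation loads of 77% in mutant 1 and 81% in mutant 2, so part of the mitochondrial genomes stayed unmutated. Aars2 encodes the enzyme that charges that tRNA. Mutant 1 and wild type 1 form set A, counted with Cell Ranger 7.0.0, and mutant 2 and wild type 2 form set B, counted with Cell Ranger 7.1.0 and titled as male. Acute colitis is named in the title of the series, while the sample labels mention no such treatment. Nothing in the labels says whether a library was 1 mouse or a pool, so p-values measure the spread between these 4 libraries only.

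Cells were sorted after staining for CD45, CD31, TER-119 and the epithelial marker CD326 (Epcam), and were read with a droplet method that counts each captured molecule (UMI) at its 3' end. After filtering, 10004 and 7575 epithelial cells remained in mutants 1 and 2, and 4247 and 7296 in wild types 1 and 2, with 86093472 to 99569296 UMIs per library. Wild type 1 stood apart in depth, with a median of 20578 UMIs per cell against 9461 to 10866 in the other 3 libraries. Epcam reached 2301 to 3370 CPM (UMIs of a gene scaled to a fixed total per library) and Ptprc, the gene of CD45, 23 to 149 UMIs in a whole library. Any pair of libraries shared 26 to 60 cell barcodes, at most 0.484% of the smaller library. Crypt cells (clusters named stem-like or cycling-like from their markers) numbered 3375 and 2313 in the mutants and 1013 and 2099 in the wild types. Enterocytes (clusters named enterocyte-like) numbered 1733 and 3070 in the mutants and 1254 and 2948 in the wild types. Clusters with too few markers for a name held 2177 and 812 cells in the mutants and 697 and 641 in the wild types. They count among all epithelial cells only. Cluster 5, with 1744 of these cells, had the cycling marker Top2a among its leading genes, so the crypt cells may be incomplete.

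No synthetase gene passed the test in mutants against wild types, in all epithelial cells, in crypt cells or in enterocytes. UMIs were summed per library and compared with the edgeR quasi-likelihood test, with p-values adjusted over all genes tested and a call at an adjusted p under 0.05. All 37 members passed the filter on low counts in each of these 3 populations. The fit with mutant and wild type as its only term called 0 of 37 members against 0% of 16700 genes in all epithelial cells, 0 of 37 against 0% of 14208 genes in crypt cells, and 0 of 37 against 0% of 12942 genes in enterocytes. It left 114, 87 and 76 of those genes at an unadjusted p under 0.05, and none of the members. With a term for the set, 6.08% of genes in all epithelial cells had an unadjusted p under 0.05, and 0 of 37 members did. The fit that also had the set term left less unexplained spread. It called 0.162% of genes in all epithelial cells (0.0898% higher in mutants), 0.676% in crypt cells (0.549% higher) and 0.155% in enterocytes (0.147% higher), again with 0 of 37 members in each population. DESeq2 called 0 of 37 members in the 3 populations, with and without the set term, while it called 9, 0 and 0 genes in all without the term and 27, 30 and 22 genes with it.

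The intervals show which differences between genotypes these libraries leave room for, under each fit's estimate of the spread. With the set term only 1 residual degree of freedom was left, and edgeR moderated each gene's spread toward that of other genes. The narrower intervals of that fit therefore rest in part on other genes. In all epithelial cells the log2 ratios of mutants to wild types ran from -0.27 to 0.27 over the 37 members, with SEs of 0.15 to 0.41, and the 95% intervals of 36 members stayed between -1 and 1, but those of 10 members stayed between -0.5 and 0.5. With the set term all 37 intervals stayed between -1 and 1, and 32 stayed between -0.5 and 0.5. In crypt cells all 37 stayed between -1 and 1 in both fits, while 11 stayed between -0.5 and 0.5 without the set term and 34 with it. Enterocytes gave wider intervals, from SEs of 0.18 to 0.52 without the set term, and there 27 of 37 members stayed between -1 and 1 and 0 between -0.5 and 0.5, against 36 and 20 members with the set term. Each member had at least 247 UMIs per library in all epithelial cells, 122 in crypt cells and 23 in enterocytes.

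Aars2, the mitochondrial alanyl-tRNA synthetase and so the partner of the mutated tRNA, had few UMIs in every library, 265 to 489 in all epithelial cells. It had 4.66 CPM in mutant 1 and 3.19 CPM in mutant 2, against 5.20 CPM in wild type 1 and 3.21 CPM in wild type 2, in all epithelial cells. The groups overlapped, and the 2 libraries of set A were the higher ones whatever the genotype. The log2 ratio was -0.10 (SE 0.35; 95% interval -0.97 to 0.78; edgeR adjusted p = 1), and with the set term -0.09 (SE 0.20; interval -0.52 to 0.35). In crypt cells Aars2 had 5.75 and 4.58 CPM in mutants 1 and 2, against 7.13 and 4.24 CPM in wild types 1 and 2, so that the difference took opposite signs in the sets, at -0.29 within set A but 0.10 within set B. In enterocytes its counts were 40 and 44 UMIs in the mutants and 64 and 43 UMIs in the wild types. Aars, the cytosolic alanyl-tRNA synthetase, had 17.9 and 16.7 CPM in mutants 1 and 2 and 19.1 and 15.8 CPM in wild types 1 and 2 in all epithelial cells. Its groups overlapped too, with a log2 ratio of -0.01 (SE 0.19; interval -0.48 to 0.46). Aars2 lies at chr17:45506841-45520843 on the plus strand and Aars at chr8:111033144-111057664 on the plus strand (GENCODE vM21, GRCm38); Aars overlaps Exosc6 on the same strand, whose reads could be shared with it.

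**Figure D1:**
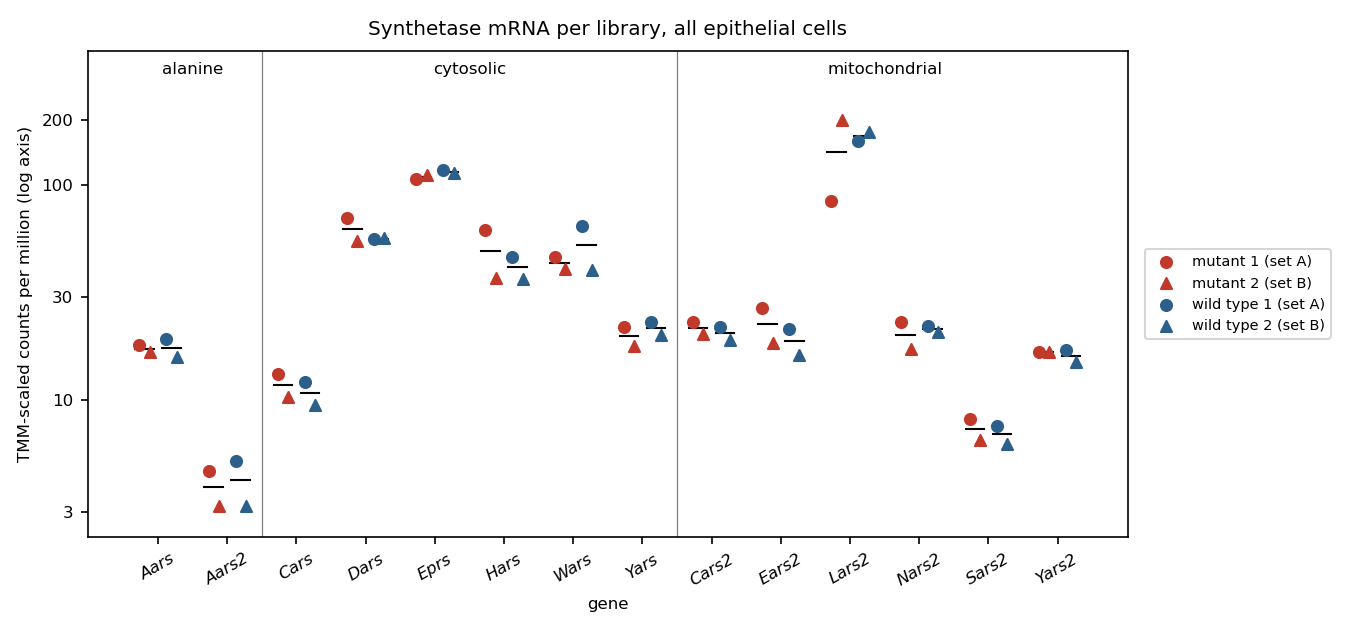
CPM (scaled by TMM factors, log axis) of the alanine enzymes and of the 6 cytosolic and 6 mitochondrial synthetase genes with the smallest p in all epithelial cells; each point is 1 library, circles for set A and triangles for set B, and each bar is a group's mean. Mutants and wild types overlap for most genes, and Lars2 is low in mutant 1 alone (84.6 CPM against 160.4 to 200.5 CPM in the other libraries).

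Among the mitochondrial enzymes, mutants and wild types were centred on the same level in all epithelial cells. The median log2 ratio of the 16 genes was 0.0031, beside -0.0034 over all genes tested, with 0.050 within set A and -0.011 within set B. Ears2, the glutamyl-tRNA synthetase of mitochondria, had the smallest p among them. It had 26.7 CPM in mutant 1 and 18.4 CPM in mutant 2, against 21.3 CPM in wild type 1 and 16.2 CPM in wild type 2, so each mutant was above the wild type of its set while the groups overlapped. Its log2 ratio was 0.27 (SE 0.26; edgeR adjusted p = 1), and 0.26 with the set term (SE 0.14; adjusted p = 0.900). Nars2, the asparaginyl enzyme, had 23.0 and 17.2 CPM in mutants 1 and 2 against 22.1 and 20.8 CPM in wild types 1 and 2, with a log2 ratio of -0.09 (SE 0.20). Cars2, the cysteinyl enzyme, had 22.9 and 20.1 CPM in the mutants against 21.9 and 18.9 CPM in the wild types, a ratio of 0.08 (SE 0.18). Sars2, the seryl enzyme, had 8.10 and 6.51 CPM in the mutants against 7.56 and 6.24 CPM in the wild types, a ratio of 0.08 (SE 0.23). Yars2, the tyrosyl enzyme, had 16.7 CPM in each mutant against 17.1 and 15.01 CPM in the wild types, a ratio of 0.06 (SE 0.17). In all 4 of these genes the SE was larger than the ratio.

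The cytosolic enzymes behaved likewise. Their median log2 ratio in all epithelial cells was 0.0028 over 21 genes, with 0.011 within set A and 0.072 within set B. Wars, the tryptophanyl-tRNA synthetase and a known interferon-induced gene, had 46.3 CPM in mutant 1 and 40.6 CPM in mutant 2, against 64.7 CPM in wild type 1 and 40.0 CPM in wild type 2. Within set A the ratio was -0.48, against 0.02 within set B, and the fitted ratio was -0.27 (SE 0.26; adjusted p = 1). The 20 interferon-stimulated genes examined beside it also differed by set, with a median ratio of -0.31 within set A but 1.17 within set B. Wars was highest on average in goblet cells, which secrete mucus (CPM without TMM factors). There it had 196.3 and 184.9 CPM in mutants 1 and 2 against 234.2 and 170.2 CPM in wild types 1 and 2. Goblet cells made up 14.9% and 9.10% of mutants 1 and 2, against 21.1% and 9.70% of wild types 1 and 2. Within sets A and B, Wars had ratios of 0.05 and 0.01 in enterocytes and -0.26 and 0.09 in crypt cells. The part of the interferon-stimulated genes and of goblet cells in the values of Wars was not tested. Hars, the histidyl enzyme, was the mirror image of Wars, with 61.4 CPM in mutant 1 and 36.8 CPM in mutant 2 against 46.3 CPM in wild type 1 and 36.4 CPM in wild type 2. Within set A its ratio was 0.40, within set B 0.02, and it kept that split in crypt cells (0.43 and 0.01) and in enterocytes (0.43 and -0.04). Hars overlaps Hars2 on the other strand. Strand use in the counting is not given in the sources used here, so reads of this pair may not be fully separated. The same limit holds for all 10 members that overlap a protein-coding gene on the other strand. Among these are Wars (with Wdr25), Yars (with C77080), Ears2 (with Ubfd1) and Cars2 (with Naxd).

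Eprs and Dars both belong to the multi-synthetase complex, a cytosolic assembly of 8 of these enzymes with 3 scaffold proteins. Eprs, which charges glutamate and proline tRNAs, had 107.0 and 110.7 CPM in mutants 1 and 2, below the 117.4 and 113.5 CPM of wild types 1 and 2, yet the ratio of -0.09 (SE 0.15) was smaller than its error. Dars, the aspartyl enzyme, had 70.3 and 54.7 CPM in the mutants against 55.7 and 56.4 CPM in the wild types, a ratio of 0.16 (SE 0.18). Over the 8 enzymes of the complex the median ratio was 0.0090 in all epithelial cells, 0.031 in crypt cells and -0.087 in enterocytes. Of the scaffolds, 0 of 3 passed in either fit; Eef1e1 had 102.7 and 80.5 CPM in crypt cells of the mutants against 72.6 and 71.5 CPM in those of the wild types, both mutants above both wild types, with a ratio of 0.34 with the set term (SE 0.12; edgeR adjusted p = 0.269). Yars, the tyrosyl enzyme, had 21.9 and 17.7 CPM in the mutants against 23.1 and 19.9 CPM in the wild types (ratio -0.12, SE 0.19). Cars, the cysteinyl enzyme, had 13.2 and 10.3 CPM in the mutants against 12.02 and 9.40 CPM in the wild types (ratio 0.13, SE 0.23).

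Within the sets, most members took opposite signs. The rest were more often higher in mutants in all epithelial cells and more often lower in enterocytes. In all epithelial cells 12 of 37 members were higher in the mutant of both sets, beside 24.4% of all genes, and 3 were lower in both, beside 25.6% of all genes. In crypt cells 9 were higher in both sets, beside 26.4%, and 7 were lower in both, beside 26.4%. In enterocytes 6 were higher in both, beside 24.3%, and 12 were lower in both, beside 26.9%. Both mutants were above both wild types in 1 member in all epithelial cells and 1 in crypt cells, beside 9.02% and 9.85% of all genes, and below both in 1 and 2, beside 10.4% and 10.9%. The other members, 22 in all epithelial cells, 21 in crypt cells and 19 in enterocytes, took opposite signs in the sets. The 12 cytosolic synthetases reported as ATF4 targets (Aars, Cars, Eprs, Gars, Iars, Lars, Mars1, Nars, Sars, Tars, Wars and Yars) had median ratios of -0.013, 0.052 and -0.047 in all epithelial cells, crypt cells and enterocytes, and the 9 other cytosolic enzymes 0.044, 0.0060 and -0.013.

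In crypt cells with the set term, 1 of 37 members had an unadjusted p under 0.05, beside 7.65% of all genes, and without the set term 0 members did. Cars had 15.2 CPM in mutant 1 and 10.97 CPM in mutant 2, against 11.3 CPM in wild type 1 and 9.16 CPM in wild type 2, higher in the mutant of each set by 0.41 within set A and by 0.25 within set B. Its ratio was 0.36 without the set term (SE 0.25; edgeR adjusted p = 1) and 0.35 with it (SE 0.16; adjusted p = 0.544, and 0.544 to 1 over all alternatives). The median of the 21 cytosolic genes in crypt cells was 0.037, beside -0.0074 over all genes tested, and that of the 16 mitochondrial genes was -0.031. The 4 cycling-like clusters split by set, 2 with 73.5% and 96.9% of their cells from set A and 2 with 82.2% and 95.2% from set B. Cycling-like cells made up 63.1% and 61.7% of the crypt cells in mutants 1 and 2, against 46.4% and 53.8% in wild types 1 and 2. Stem-like cells alone and cycling-like cells alone, populations added after the data were seen, each gave 0 of 37 members called, with and without the set term.

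The synthetases stood beside other genes of the ATF4 programme that did pass a test in the same crypt cells. This list of 27 genes, none of them a synthetase, covers the transcription factors themselves, serine and asparagine synthesis, one-carbon metabolism and amino acid transport, and 26 passed the filter. With the set term 11 of 26 rose in mutants and 0 fell, beside 0.676% of all genes called (0.549% higher). Of the synthetases 0 of 37 passed, and so 0 of the 12 that are reported ATF4 targets. Without the set term, 0 of 26 genes of the programme and 0 of 37 synthetases passed. DESeq2 with the set term called 4 of the programme. Summed markers of Paneth cells and of lymphocytes were also higher in the crypt cells of the mutant of each set. The groups overlapped for Paneth cell markers and not for lymphocyte markers. Summed enterocyte markers, at 1819 and 2495 CPM in the mutants against 1669 and 2388 CPM in the wild types, were higher too. Myeloid markers took opposite signs in the sets, at 15.65 and 9.48 CPM in the mutants against 20.16 and 8.64 CPM in the wild types. Both sums are without TMM factors. All 20 Paneth cell markers were detected in every library and higher in the mutant of both sets, summing to 3079 and 6463 CPM in mutants 1 and 2 against 1251 and 4474 CPM in wild types 1 and 2 (without TMM factors). Among these, Nupr1 is also in the ATF4 list; without it the sums were 3072 and 6450 CPM in the mutants against 1245 and 4468 CPM in the wild types. Of 17 lymphocyte markers, 11 were higher in the mutant of both sets and 1 lower, at 12.8 and 6.83 CPM in all in the mutants against 6.09 and 1.79 CPM in the wild types. Cd3d was at 0 in mutant 2 and wild type 2, and Nkg7 was at 0 in both wild types. The part of these markers in the programme's values was not tested. The list was drawn up with earlier results of these data known, so its direction is not independent evidence. Its median ratio in crypt cells was 0.53, with 0.39 within set A and 0.50 within set B, and 21 of its 26 tested genes were higher in the mutant of both sets. Psat1, an enzyme of serine synthesis, had 20.8 and 23.3 CPM in mutants 1 and 2 against 9.72 and 13.1 CPM in wild types 1 and 2, with no overlap and a ratio of 0.96 with the set term (SE 0.14; edgeR adjusted p = 6.13e-06). Psph, of the same pathway, had 32.3 and 32.0 CPM in the mutants against 20.3 and 19.4 CPM in the wild types, a ratio of 0.69 (SE 0.13; adjusted p = 0.000530). Chac1, which degrades glutathione, was barely detected in wild types, with 2.10 and 2.12 CPM in the mutants against 0.252 and 0.376 CPM in the wild types (ratio 2.73, SE 0.39; adjusted p = 1.74e-06). Asns, the asparagine synthetase, had 39.3 and 40.9 CPM in the mutants against 33.2 and 21.9 CPM in the wild types (ratio 0.57, SE 0.13; adjusted p = 0.0149). Each of these 4 genes had an adjusted p of 1 in at least 1 alternative, the highest of its range. Atf4 mRNA itself overlapped between groups, with 100.9 and 57.7 CPM in the mutants against 89.4 and 61.8 CPM in the wild types. In stem-like cells alone 0 genes of the list passed with the set term, and in cycling-like cells alone 9 passed.

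**Figure D2:**
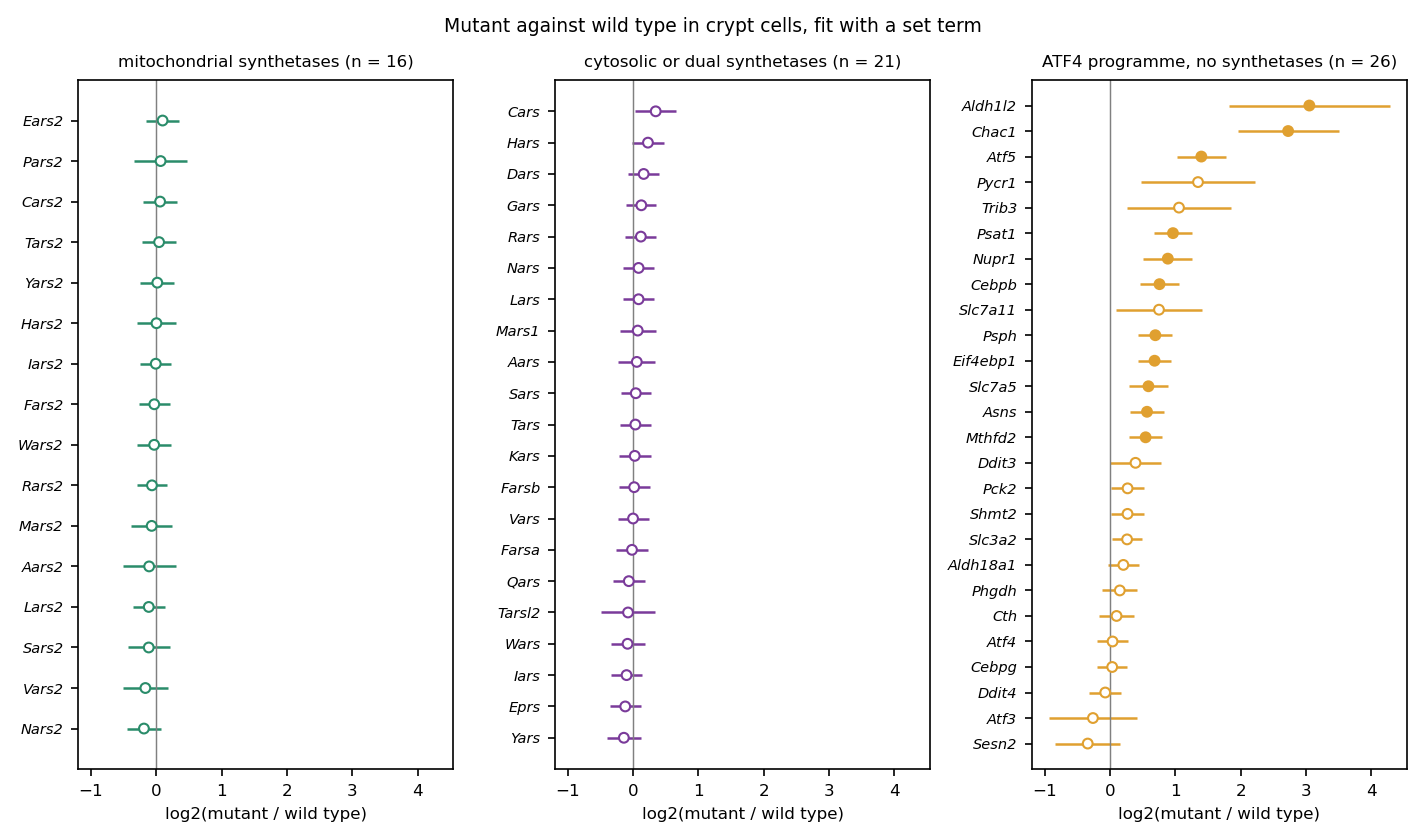
Log2 ratios of mutants to wild types in crypt cells from the fit with a set term, with 95% intervals, for 16 mitochondrial synthetases, 21 cytosolic or dual synthetases and 26 genes of the ATF4 programme; filled points have an adjusted p under 0.05. The synthetases lie between -0.19 and 0.35 with 0 filled points, and 11 points of the ATF4 programme are filled.

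**Figure D3:**
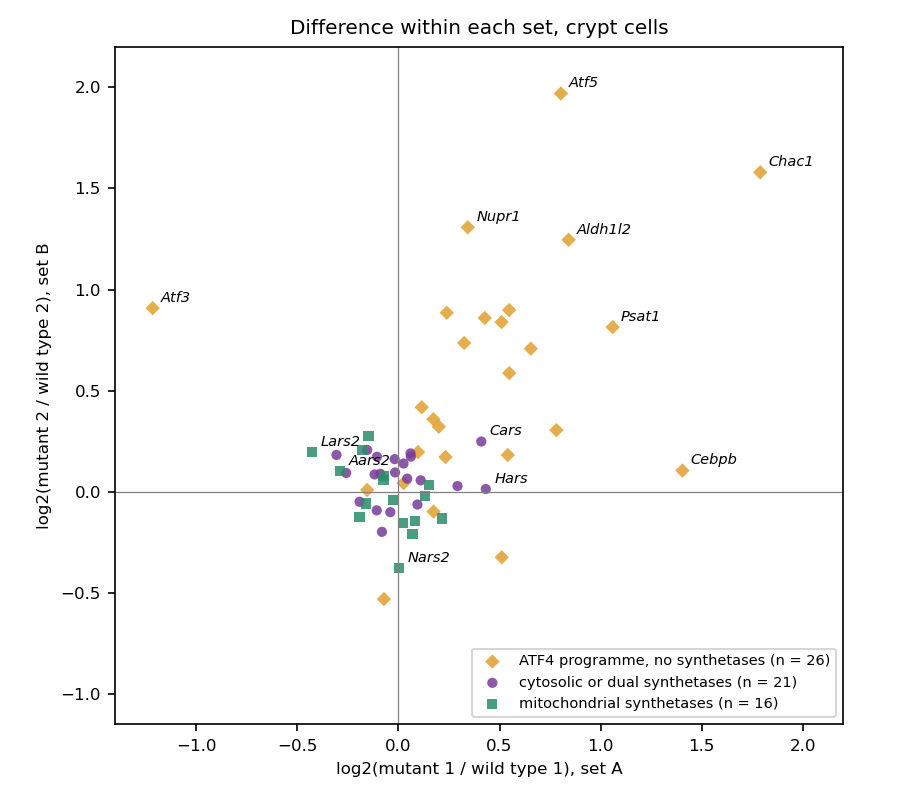
Log2 ratio of mutant to wild type within set A (x axis) and within set B (y axis) in crypt cells, 1 point per gene, from CPM plus a pseudocount of 0.5. Synthetases of both compartments cluster around 0 on both axes, and 21 of 26 genes of the ATF4 programme lie above 0 on both axes.

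The promoters of these genes were read for the motif TGATGNAA, which ATF4 binds together with C/EBP proteins, to see which synthetases carry it close to their start. RefSeq's promoter table (GRCm38.p6, 250 bases before to 50 after each start) held 28 of the 37 members; Cars, Hars, Hars2, Lars, Nars, Pars2, Rars, Vars and Wars were not matched. The motif, on either strand, was in 5 of 28 members: Aars, Gars, Iars, Tars and Yars. All 5 are among the 8 reported ATF4 targets with a promoter, while 0 of the 20 other members and 0 of the 14 mitochondrial members held it, beside 1219 of 27025 genes (4.51%) in the whole table. In the ATF4 programme it was in 8 of 23 genes. Of the 11 that rose in crypt cells with the set term, 8 had a promoter in the table, and 3 of these held the motif (Asns, Chac1 and Nupr1) while Atf5, Cebpb, Mthfd2, Psat1 and Psph did not. Of the 15 tested genes that did not pass, 14 had a promoter and 5 held it. The windows run from 120 bases before to 30 bases from the start, 5' to 3' on the gene's strand, with the motif in capitals; Asns is shown as a gene of the programme that rose in crypt cells, and Aars2 as the partner of the mutated tRNA, without the motif.
Aars (chr8:111033722-111033871, plus strand): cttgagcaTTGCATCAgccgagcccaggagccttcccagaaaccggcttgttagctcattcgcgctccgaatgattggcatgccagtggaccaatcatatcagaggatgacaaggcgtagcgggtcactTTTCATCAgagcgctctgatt
Gars (chr6:55037881-55038030, plus strand): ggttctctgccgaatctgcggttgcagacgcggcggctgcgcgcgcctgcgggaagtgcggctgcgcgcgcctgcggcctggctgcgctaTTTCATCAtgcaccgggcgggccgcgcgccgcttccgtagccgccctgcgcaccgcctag
Iars (chr13:49682010-49682159, plus strand): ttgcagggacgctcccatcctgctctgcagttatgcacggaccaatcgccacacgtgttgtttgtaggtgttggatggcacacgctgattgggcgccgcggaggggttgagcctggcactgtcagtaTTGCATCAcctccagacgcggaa
Tars (chr15:11399629-11399778, minus strand): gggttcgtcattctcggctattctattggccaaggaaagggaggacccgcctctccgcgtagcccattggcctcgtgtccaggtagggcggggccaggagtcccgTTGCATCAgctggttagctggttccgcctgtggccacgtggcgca
Yars (chr4:129189783-129189932, plus strand): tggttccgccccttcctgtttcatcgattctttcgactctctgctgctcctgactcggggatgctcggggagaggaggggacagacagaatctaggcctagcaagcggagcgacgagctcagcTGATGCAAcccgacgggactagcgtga
Asns (chr6:7693180-7693329, minus strand): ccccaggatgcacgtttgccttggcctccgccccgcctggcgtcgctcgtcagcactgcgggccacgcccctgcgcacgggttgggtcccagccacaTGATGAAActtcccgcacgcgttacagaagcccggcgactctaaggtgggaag
Aars2 (chr17:45506712-45506861, plus strand): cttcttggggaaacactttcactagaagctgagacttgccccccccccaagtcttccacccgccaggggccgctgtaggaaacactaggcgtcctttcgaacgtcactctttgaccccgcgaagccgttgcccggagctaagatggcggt
In Aars, Gars, Iars and Tars the motif lies on the opposite strand and so reads TTGCATCA or TTTCATCA, and in Yars and Asns it reads TGATGCAA and TGATGAAA on the gene's strand. Relative to the RefSeq start used here, Aars carries it at -112 and 9, Gars at -30, Iars at 7, Tars at -15 and Yars at 3. Each place is counted to the motif's first printed base. The windows of Aars and Yars lie inside the genes as annotated by GENCODE vM21, which begin at 111033144 and 129189760. The letters are a description of the sequence and do not show that a factor binds there. The 5 synthetases with the motif had ratios in crypt cells, with the set term, of 0.06 (Aars), 0.12 (Gars), -0.10 (Iars), 0.03 (Tars) and -0.14 (Yars), with 0 of 5 passing the test. NRF1 drives many nuclear genes for mitochondria, and its motif, searched on both strands, was in Farsb, Iars2, Kars, Mars2 and Tars, 5 of 28 members, beside 5.19% of all genes with a promoter. Tars alone held both motifs, at places that share no bases.

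Enterocytes gave the largest ratios among the members, both in mitochondrial enzymes. Ears2 had 24.3 CPM in mutant 1 and 16.7 CPM in mutant 2, against 19.0 CPM in wild type 1 and 12.6 CPM in wild type 2. Each mutant was above the wild type of its set, by 0.34 within set A and by 0.39 within set B, and the ratio was 0.37 without the set term (SE 0.31; edgeR adjusted p = 1) and 0.38 with it (SE 0.15; adjusted p = 0.762, and 0.762 to 1 over all alternatives). Cars2, with 20.0 and 17.5 CPM in the mutants against 17.2 and 14.1 CPM in the wild types, and Cars, with 8.06 and 7.57 CPM in the mutants against 7.31 and 5.78 CPM in the wild types, had both mutants above both wild types at ratios of 0.26 (SE 0.23) and 0.26 (SE 0.28). These were the 2 of 37 members with both mutants above both wild types in enterocytes, beside 8.55% of all genes. In 5 members, Fars2, Rars2, Tars, Tars2 and Yars, both mutants were below both wild types, beside 8.48% of all genes. Tars2, the mitochondrial threonyl enzyme, had 10.7 and 9.81 CPM in mutants 1 and 2 against 13.2 and 11.6 CPM in wild types 1 and 2. With the set term, Ears2 and Lars2 were the 2 of 37 members with an unadjusted p under 0.05, beside 5.78% of all genes. The mitochondrial genes had a median ratio of -0.10 in enterocytes and the cytosolic genes -0.013, beside -0.0082 over all genes tested.

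Lars2, the leucyl-tRNA synthetase of mitochondria, differed in 1 set only. Its enterocytes held 179.6 CPM in mutant 1 and 490.3 CPM in mutant 2, against 483.5 CPM in wild type 1 and 455.2 CPM in wild type 2. Mutant 1 was the one low library, with a ratio of -1.43 in set A against 0.11 in set B. The fitted ratio was -0.49 (SE 0.47; edgeR adjusted p = 1) and, with the set term, -0.66 (SE 0.27; adjusted p = 0.791, and 0.791 to 1 over all alternatives). Without mutant 1 it was 0.06 (edgeR adjusted p = 1), and without mutant 2 it was -1.38 (adjusted p = 0.999). With genes centred within each library before clustering, the ratio in enterocytes was -0.94 for Lars2 (SE 0.44) and 0.68 for Ears2, each with an edgeR adjusted p of 1. The same split between sets was seen in all epithelial cells (-0.92 in set A, 0.18 in set B) and, smaller, in crypt cells (-0.43 and 0.20). The gene lies at chr9:123366927-123462666 on the plus strand and overlaps no other protein-coding gene in GENCODE vM21. Whether reads from elsewhere in the genome were counted with it was not examined.

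Lars2 also set the enterocyte clusters apart, in CPM without TMM factors. In clusters 12, 13 and 14, whose cells had medians of 1544 to 3850 UMIs, it reached 556.6 to 1580 CPM in the mutants and 607.2 to 2410 CPM in the wild types. In clusters 15, 20 and 21, with medians of 9278 to 29164 UMIs, it was 76.6 to 187.6 CPM in the mutants and 87.0 to 180.1 CPM in the wild types. Cluster 13, which expressed lactase and sugar transporters and had 16.4% to 20.2% mitochondrial UMIs, gave 912.9 CPM in mutant 1 and 1580 CPM in mutant 2, against 2410 CPM in wild type 1 and 1435 CPM in wild type 2. Cluster 12 held the ileal bile acid genes Slc10a2, Fabp6 and Slc51a among its 50 leading genes. It had 4.2% to 6.7% mitochondrial UMIs, against 5.4% to 9.9% in clusters 15, 20 and 21. Cluster 12 gave 624.7 and 687.8 CPM in mutants 1 and 2 against 1634 and 607.2 CPM in wild types 1 and 2. Here wild type 1 was the one high library. Cluster 14 gave 556.6 and 1503 CPM in the mutants against 1789 and 1599 CPM in the wild types. In the clusters with more UMIs the set A gap was smaller or turned round. Cluster 20 gave 76.6 and 96.1 CPM in the mutants against 105.7 and 87.0 CPM in the wild types, and cluster 21 gave 114.4 and 148.9 CPM in the mutants against 175.9 and 126.4 CPM in the wild types. In cluster 15, with 149.4 and 187.6 CPM in the mutants against 142.9 and 180.1 CPM in the wild types, mutant 1 was above wild type 1. Clusters 12 to 14 together held 46.2% and 59.9% of the enterocytes of mutants 1 and 2, against 63.3% and 64.1% in wild types 1 and 2, and the part of these shares and of depth in the ratio of Lars2 was not tested.

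**Figure D4:**
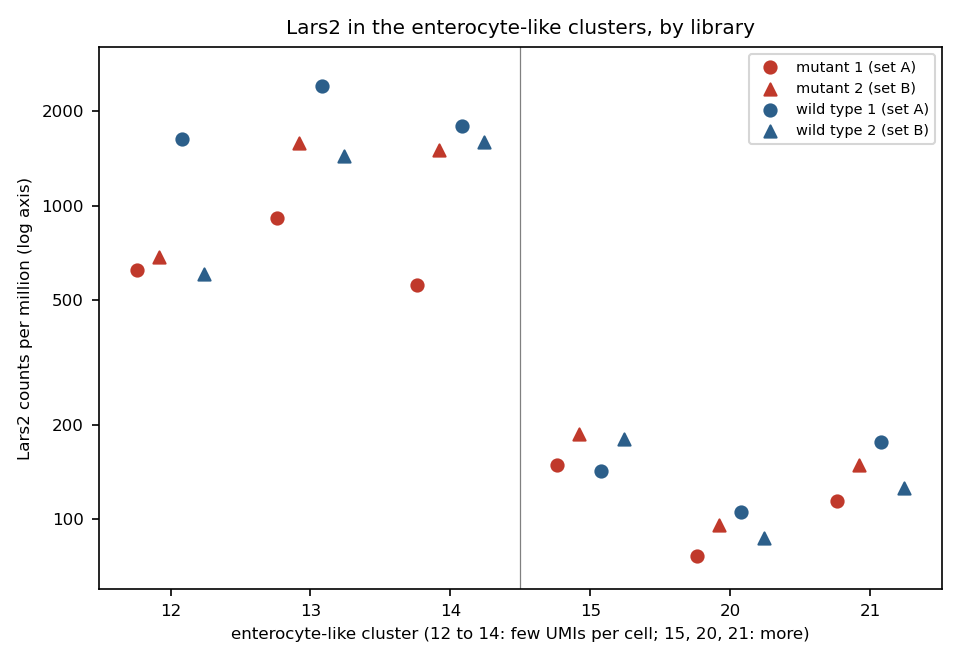
Lars2 CPM (log axis) in the 6 enterocyte-like clusters, 1 point per library, circles for set A and triangles for set B. Clusters 12 to 14 lie between 556.6 and 2410 CPM and clusters 15, 20 and 21 between 76.6 and 187.6 CPM, and in clusters 12 to 14 wild type 1 is the highest library and mutant 1 is the lowest or next to it.

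The class of cell, crypt cells or enterocytes, separated most of these genes far more than genotype did. In 34 of 37 members the level was higher in crypt cells than in enterocytes in all 4 libraries, beside 43.9% of 14614 genes, and in 2 it was lower in all 4, beside 40% of genes. The median over members of the log2 ratio of crypt cells to enterocytes was 0.77 for cytosolic and 0.57 for mitochondrial genes, beside 0.04 for all genes. This is a comparison of cell classes of the same libraries with no test, and the synthetase genes were left out of the genes used for clustering. The classes also differed in depth, with medians of 10213 to 25198 UMIs per cell in crypt cells and 3371 to 4327 in enterocytes. Mitochondrial UMIs were 4.1% to 5.7% in crypt cells and 7.2% to 9.7% in enterocytes. The part of these differences in the ratios was not tested. Vars, the valyl enzyme, had the highest ratio of crypt cells to enterocytes, with 67.5 and 48.7 CPM in crypt cells of mutants 1 and 2 and 71.9 and 45.8 CPM in those of wild types 1 and 2. In enterocytes it had 14.9 and 6.87 CPM in the mutants and 13.6 and 6.88 CPM in the wild types, and its ratio ran from 1.93 to 2.50 over the libraries. Yars2 followed with 1.53 to 2.06, and then Farsb, a subunit of the phenylalanyl enzyme, with 1.31 to 1.71. Aars2 ran from 0.57 to 0.77. The exceptions were Lars2, which had the widest gap of all members and in the other direction, at -2.71 to -1.66, Nars, the asparaginyl enzyme, at -0.39 to -0.11, and Aars, which was higher in crypt cells in 2 of 4 libraries. Without TMM factors the median of all genes moved to 0.24 and 34 members were again higher in all 4 libraries, while Nars was then higher in crypt cells in 1 library and Aars in 3.

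**Figure D5:**
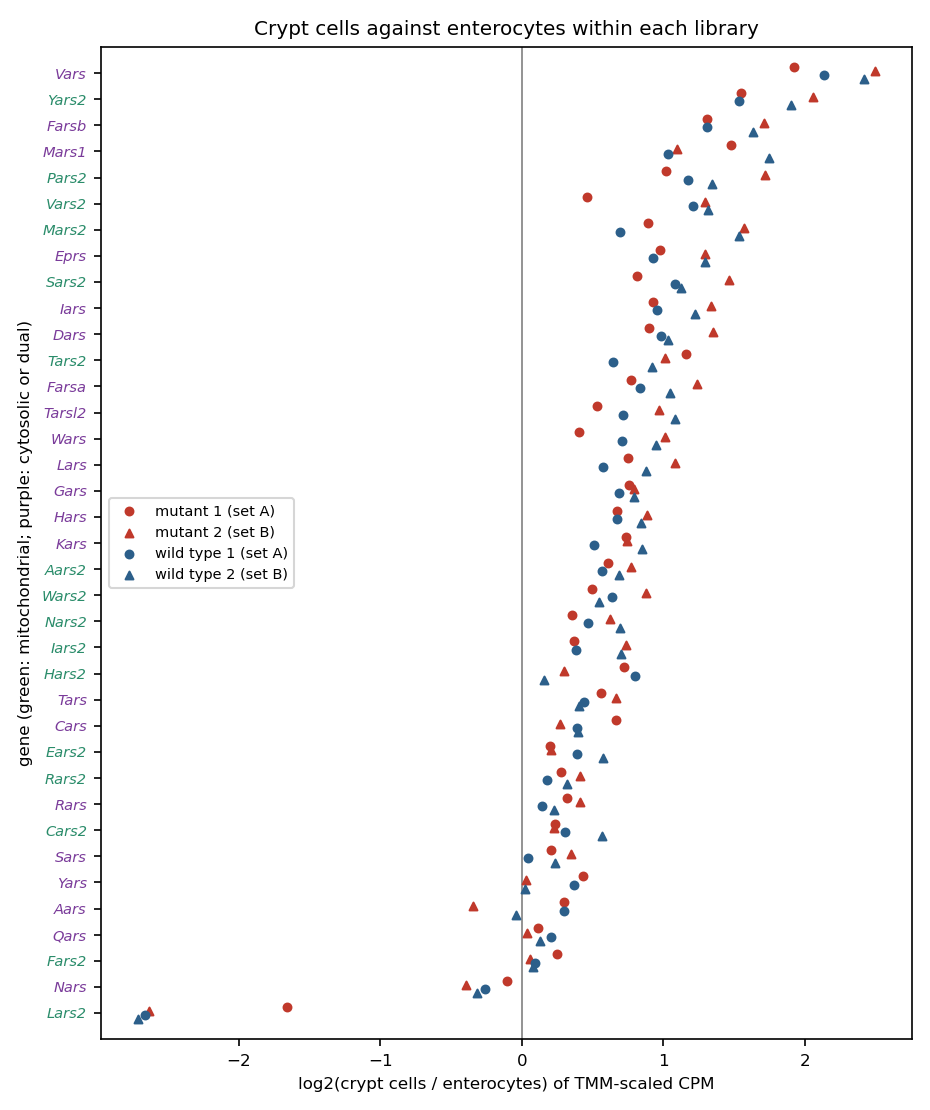
Log2 ratio of crypt cells to enterocytes within each library for the 37 members, ordered by the median over libraries; red points are mutants, blue points wild types, circles set A and triangles set B. Points of 34 genes lie right of 0 in all 4 libraries, and Lars2 lies alone at the far left.

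The genotype difference was not shown to depend on the class. A test of the difference between the genotype effect in crypt cells and that in enterocytes (edgeR, 8 sums, library and class as terms) called 0% of 14614 genes, with 102 at an unadjusted p under 0.05, and 0 of 37 members. Lars2 had the smallest p among the members, with an effect 0.54 higher in crypt cells (SE 0.32; edgeR adjusted p = 1).

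Across the other classes, the summed CPM of the 21 cytosolic genes was lowest in Paneth cells, at 439.5 and 342.0 in mutants 1 and 2 and 463.0 and 373.4 in wild types 1 and 2. On average it was highest in secretory precursors, at 1423 and 1416 in the mutants and 1623 and 1475 in the wild types, with no overlap with Paneth cells, enterocytes, tuft cells or enteroendocrine cells. Cycling-like cells came next on average, at 1403 and 1306 in the mutants and 1508 and 1304 in the wild types. Goblet cells, which secrete mucus, followed at 1299 and 1281 in the mutants and 1457 and 1303 in the wild types. Wars alone gave 196.3 and 184.9 CPM of the goblet sum in the mutants and 234.2 and 170.2 CPM in the wild types. Aars shared the high level in goblet cells, with 32.0 and 28.6 CPM in the mutants and 39.7 and 34.4 CPM in the wild types, against 12.6 and 8.29 CPM in stem-like cells of the mutants and 13.8 and 10.4 CPM in those of the wild types. On average Aars2 was highest in cycling-like and stem-like cells, whose values overlapped those of most other classes. In stem-like cells it had 6.17 and 4.50 CPM in the mutants and 6.57 and 3.91 CPM in the wild types, and in Paneth cells 1.74 and 0.865 CPM in the mutants and 1.07 and 0.757 CPM in the wild types, from 4 to 13 UMIs per library. The summed CPM of the 16 mitochondrial genes moved with Lars2 in enterocytes, at 496.5 and 679.5 in mutants 1 and 2 and 830.7 and 711.5 in wild types 1 and 2, while in stem-like cells it was 551.2 and 540.8 in the mutants and 604.5 and 560.7 in the wild types. All class values are CPM without TMM factors, and a lower CPM in a class can come from fewer transcripts of the gene or from more of other genes.

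The genes that act next to the synthetases gave no call either. Of the 14 factors for charging and translation in mitochondria, such as the glutaminyl-tRNA amidotransferase subunits and the elongation factors, 0 passed in either fit in the 3 populations. Tsfm, a mitochondrial elongation factor, came nearest in crypt cells, with 206.8 and 124.8 CPM in mutants 1 and 2 against 127.3 and 106.8 CPM in wild types 1 and 2 (ratio 0.46 with the set term, SE 0.12; edgeR adjusted p = 0.0575). The median of these factors in crypt cells was -0.032. Of the 7 genes of cytosolic elongation and tRNA export, 0 passed, with a median of 0.032 in crypt cells; Xpot, the exportin of tRNAs, had 37.2 and 28.8 CPM in the mutants against 33.2 and 28.3 CPM in the wild types.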

How the data were processed

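The deposited matrices hold raw UMI counts for each gene in each barcode. Per the file headers they came from Cell Ranger, version 7.0.0 for set A but 7.1.0 for set B; the build was mm10 according to the submitters' processing notes. Intron counting and strand use: not given in the sources used here. Barcodes with at least 500 genes, 1000 UMIs and under 30% mitochondrial UMIs were kept. The automatic doublet threshold of scrublet called 0% to 14.4% of barcodes, so 0.8% of barcodes per 1000 barcodes were removed as the highest scored instead. Clustering (scanpy 1.11.5, 2000 variable genes without the synthetases, 50 components, 15 neighbours, Leiden resolution 1, no centring within libraries) gave 23 clusters, named from at least 3 markers among 50 leading genes. A T cell cluster was removed (34 to 61 cells in mutants, 13 to 40 in wild types).

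UMIs were summed per library and population. The total depth per library was 26285370 to 36367081 UMIs in crypt cells and 12395878 to 23486078 in enterocytes. Mutants were tested against wild types with edgeR 4.0.16 (R 4.3.3; quasi-likelihood, TMM, filterByExpr, Benjamini-Hochberg), without a set term (2 residual degrees of freedom). The set as a replicate block, DESeq2 1.42.0, RLE factors, no filter, a 15% mitochondrial limit, kept doublets, centred clustering and leaving out each library were alternatives. Replicate numbers follow accession order; the set, from titles and Cell Ranger versions, pairs libraries by processing only. CPM per gene were scaled by TMM factors unless stated, and log2 ratios within a set used a pseudocount of 0.5 CPM. Scripts were tested on simulated data. Full values are given for Aars2, Aars and the 6 members per compartment with the smallest p in all epithelial cells. The members, gene lists and populations were chosen with earlier results of these data known. Intervals cover the spread between libraries.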

Additional observations from a re-analysis of the deposited data

How the results depend on the processing

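In all 39 alternatives of the counts of synthetase genes called in the 3 populations, 0 of 37 members were called, stem-like or cycling-like cells alone included, and the replicate block changed none of these counts. The interaction between genotype and class called 0 genes under its 4 alternatives, and 34 members were higher in crypt cells in all 4 libraries with or without TMM factors. Of 546 alternative values for the 14 genes with full values, 440 moved by less than 1 SD of the 2 within-set ratios, and 106 by more. The genes of the ATF4 programme called in crypt cells, 0 without a set term, were 11 with the set as a replicate block (4 by DESeq2 with the block), 1 without a filter on low counts and 9 in cycling-like cells alone with the block.

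The medians of the log2 ratios are close to 0, and the alternatives turned the sign of some and moved others without turning it. In crypt cells the cytosolic median was -0.063 in stem-like cells alone and -0.061 with the block. The mitochondrial median there was -0.051 with doublets kept, -0.014 in stem-like and -0.068 in cycling-like cells alone, and -0.014 and -0.070 with the block. In enterocytes the cytosolic median was 0.025 with the replicate block, 0.026 by DESeq2 with the block, -0.035 with doublets kept and 0.15 with genes centred within each library before clustering, where the mitochondrial median was -0.030; the cause was not tested. Leaving out each library in turn gave cytosolic medians of -0.064 to 0.14 in all epithelial cells, -0.046 to 0.12 in crypt cells and -0.19 to 0.17 in enterocytes. It gave mitochondrial medians of -0.10 to 0.13, -0.088 to 0.025 and -0.23 to 0.12 in the same populations. With Tarsl2 counted as mitochondrial, the medians in all epithelial cells were 0.0090 for cytosolic and -0.0070 for mitochondrial genes.

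Counts over all genes moved most. In crypt cells 0 genes were called without a set term and 96 with it (30 by DESeq2 with it), 7 without a filter and 2 without wild type 1. In enterocytes 0 were called without a set term, 17 without a filter, 4 without mutant 1, 17 without wild type 1 and 43 without wild type 2. Each set holds 1 library per genotype, so the sets' genotype effects cannot be compared by a test. The set term leaves 1 residual degree of freedom, and edgeR then moderates each gene's spread toward that of other genes. Low UMI numbers limit Aars2 in enterocytes most among the genes with full values. The stem-like and cycling-like populations and the values without TMM factors were chosen after seeing the data.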
